A study of Mus musculus with 14 samples.

Results

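Huntingtin, HAP1, HIP1, HIP1R, the neurotrophin BDNF, its receptor TrkB and the coactivator PGC-1α were followed in the striatum of 6-week-old R6/2 mice. All probe sets whose platform symbol was Htt, Hap1, Hip1, Hip1r, Bdnf, Ntrk2 or Ppargc1a were taken, whatever their signal. They numbered 17 of 22626 probe sets, for 7 of 12393 genes with a named probe set. Htt and Hap1 had 1 probe set each, Bdnf and Ntrk2 had 2 each, Hip1 and Hip1r had 3 each, and Ppargc1a had 5. All 17 were tested, since no filter on low signal was applied.

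Expression was measured on an Affymetrix mouse array in total RNA from 7 R6/2 and 7 wild-type samples of a CBAxC57BL/6 background. R6/2 mice, a model of Huntington disease, keep their own Htt genes and carry as a transgene a fragment of human HTT, its exon 1, in which the CAG repeat is expanded. The fragment makes a short N-terminal protein and not full-length human huntingtin. All mice, R6/2 and wild-type, had received normal saline 30 to 60 minutes before they were killed, as the controls of 2 drug studies. The start of the sample titles gave 2 cohorts, M.C with 4 R6/2 and 4 wild-type arrays (replicates 1 to 4 of each genotype) and Mith with 3 R6/2 and 3 wild-type arrays (replicates 5 to 7). Whether every array came from its own animal is not in the labels, so the tests measure the spread between arrays, which may be partly technical. The RNA is of whole tissue, in which fewer cells of a type and less RNA per cell cannot be told apart.

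Huntingtin is a scaffold protein that, with HAP1, couples vesicles to the motors that carry them along axons. BDNF is made mainly by cortical neurons, travels to the striatum in such vesicles and acts there on TrkB, the tyrosine kinase receptor encoded by Ntrk2, to keep striatal projection neurons alive and their synapses working. PGC-1α, encoded by Ppargc1a, switches on genes of mitochondria and of antioxidant defence, and its gene is a target of the cAMP-responsive factor CREB. HIP1 and HIP1R bind clathrin and actin during endocytosis.

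Of the 17 probe sets, 1 differed between the genotypes, a probe set of Ntrk2 that was lower in R6/2. A difference was called at an adjusted p under 0.05 in limma, with genotype and cohort as terms and adjustment over all 22626 probe sets. Over the whole array 578 probe sets were called, 2.55%, and 496 of them were lower in R6/2, 2.19%. The members' median difference was -0.03 on the log2 scale, R6/2 minus wild-type, against 0.01 over all probe sets. Of the 17 differences 15 were below 0, against 45.2% of those of all probe sets. The 17 come from 7 genes read on the same arrays, so their signs are not independent. Some of the 15 lay so close to 0 that their sign changed with the scaling. At an unadjusted p under 0.05, 5 members were lower in R6/2, and so were 2157 of all probe sets, 9.53%. They were 1 probe set each of Ntrk2 and Hip1r and 3 of Ppargc1a.

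**Figure D1:**
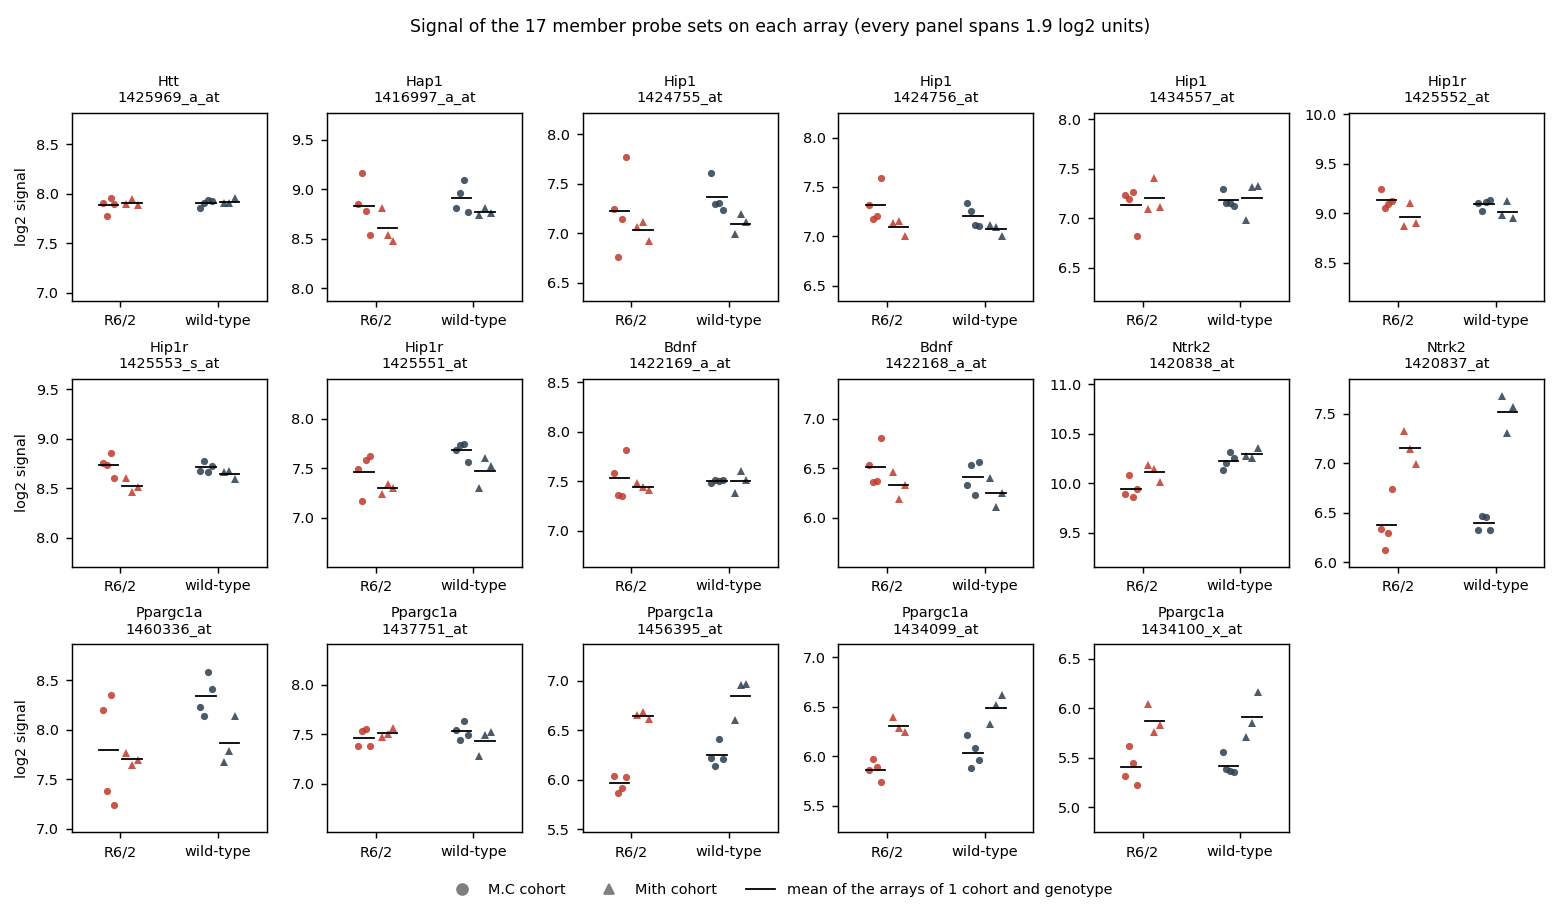
Log2 signal of each member probe set on each array, R6/2 left and wild-type right, with circles for the M.C cohort, triangles for the Mith cohort and a bar at the mean of each cohort and genotype. Every panel spans 1.9 log2 units. The R6/2 arrays of Ntrk2 1420838_at lie below the wild-type arrays of their own cohort, and those of Htt overlap with them.

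Huntingtin mRNA, as read by 1 probe set, was at nearly the same level in both genotypes. The Htt probe set 1425969_a_at read log2 signals of 7.91, 7.77, 7.96 and 7.90 on the M.C R6/2 arrays, against 7.86, 7.91, 7.94 and 7.93 on the M.C wild-type arrays. In the Mith cohort it read 7.89, 7.95 and 7.89 in R6/2, against 7.91, 7.91 and 7.95 in wild-type. The groups overlapped in both cohorts, and the lowest value, 7.77, was that of R6/2 replicate 2. The difference was -0.02 ± 0.04 (SE, adjusted p = 0.899), which put Htt in R6/2 at 98.8% of wild-type with a 95% interval of 92.6% to 105%. The sign of this difference changed between scalings, so it has no direction here. The platform assigns the probe set to the mouse gene, and where its probes lie relative to exon 1 is not given, so its signal checks neither the transgene nor the labels.

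HAP1, the adaptor that joins huntingtin to dynactin and kinesin, showed a wider spread and no call. Hap1 (1416997_a_at) read 8.85, 9.17, 8.78 and 8.54 on the M.C R6/2 arrays, against 8.81, 8.96, 9.09 and 8.77 in M.C wild-type. In Mith it read 8.82, 8.54 and 8.47 in R6/2, against 8.74, 8.81 and 8.76 in wild-type. The genotypes overlapped in both cohorts, although the 3 lowest of all 14 values were of R6/2 arrays. The difference was -0.11 ± 0.09 (SE, adjusted p = 0.590), and -0.22 ± 0.10 (SE, adjusted p = 0.427) with an RNA quality measure, the Actb 3′ to 5′ signal difference given below, as a covariate. Hap1 is abundant in the hypothalamus, and none of 9 measured hypothalamic neuron markers was called either (median difference -0.06). Their mean log2 signal was 7.15 to 7.30 in M.C R6/2, against 7.19 to 7.58 in M.C wild-type. In Mith it was 7.46 to 7.57 in R6/2, against 7.45 to 7.70 in wild-type. After centring on cohort means, Hap1 correlated with this mean at r = 0.50, and the part of hypothalamic tissue in the Hap1 values was not tested.

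The 2 endocytic genes, Hip1 and Hip1r, gave mixed readings between their own probe sets. For Hip1, which links clathrin coats to the actin skeleton, the differences were -0.10 ± 0.11 at 1424755_at, 0.08 ± 0.07 at 1424756_at and -0.03 ± 0.08 at 1434557_at (SE), with adjusted p of 0.714, 0.627 and 0.900. The brightest of them, 1424755_at, read 7.24, 6.76, 7.14 and 7.76 on the M.C R6/2 arrays and 7.61, 7.29, 7.31 and 7.24 in M.C wild-type. In that cohort R6/2 held both the lowest and the highest value. Its Mith values were 7.06, 7.11 and 6.92 in R6/2 and 6.99, 7.19 and 7.11 in wild-type, again overlapping. With the Actb 3′ to 5′ signal difference as a covariate, its genotype difference changed sign, to 0.14 ± 0.11 (SE, adjusted p = 0.687).

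For Hip1r, a relative of Hip1 that restrains actin assembly at clathrin coats, 1 of 3 probe sets averaged lower in R6/2 in both cohorts without reaching a call. Probe set 1425551_at read 7.49, 7.17, 7.58 and 7.62 on the M.C R6/2 arrays, against 7.68, 7.73, 7.75 and 7.56 in M.C wild-type. The Mith values were 7.25, 7.34 and 7.31 in R6/2, against 7.31, 7.60 and 7.53 in wild-type. Each cohort had a small overlap, made by 1 low wild-type array. The difference was -0.20 ± 0.07 (SE, adjusted p = 0.155), or 87.0% of wild-type with an interval of 78.6% to 96.4%. With the same RNA quality measure as a covariate it was -0.06 ± 0.07 (SE, adjusted p = 0.821). The other probe sets, 1425552_at and 1425553_s_at, gave -0.00 ± 0.05 and -0.03 ± 0.05 (SE), with adjusted p of 0.988 and 0.814. Whether 1425551_at moved apart from 1425552_at was tested within arrays with an exact permutation test, two-sided, over the 1400 ways to reassign genotype inside cohorts. The gap was -0.20, with an exact p of 0.02 and an adjusted p of 0.114 over the 10 probe set pairs of the members, so unequal change was not called.

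Bdnf mRNA, the ligand, did not pass the test at either probe set. Probe set 1422169_a_at read 7.59, 7.36, 7.35 and 7.82 on the M.C R6/2 arrays, against 7.48, 7.51, 7.50 and 7.52 in M.C wild-type. In Mith it read 7.49, 7.44 and 7.41 in R6/2, against 7.38, 7.60 and 7.51 in wild-type. The R6/2 arrays of M.C lay on both sides of a tight wild-type group. The difference was -0.01 ± 0.07 (SE, adjusted p = 0.975), or 99.5% of wild-type with an interval of 90.2% to 110%. At 1422168_a_at it was 0.09 ± 0.08 (SE, adjusted p = 0.654), with an interval of 94.7% to 119% of wild-type. That probe set read below the lowest array median, 7.07, on every array. Little Bdnf mRNA is made in the striatum itself, and cortical tissue is a possible source of it in a dissected sample. None of the 7 measured cortical glutamatergic neuron markers was called, with a median difference of 0.04. Their mean log2 signal was 6.43 to 6.63 in M.C R6/2, against 6.43 to 6.61 in M.C wild-type. It was 6.42 to 6.55 in Mith R6/2, against 6.38 to 6.40 in Mith wild-type, where every R6/2 array was higher. All these means lay below the lowest array median, 7.07, and the part of cortical tissue in the Bdnf values was not tested.

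TrkB mRNA was modestly lower in R6/2 at the brighter of its probe sets. Ntrk2 1420838_at read 9.89, 10.08, 9.86 and 9.94 on the M.C R6/2 arrays, against 10.13, 10.21, 10.31 and 10.26 on the M.C wild-type arrays. On the Mith arrays it read 10.18, 10.15 and 10.01 in R6/2, against 10.28, 10.25 and 10.35 in wild-type. Every R6/2 array was below every wild-type array of its cohort, a separation that 238 of all probe sets, 1.05%, showed in both cohorts in this direction. It was the only one of the 17 members to do so. The difference was -0.24 ± 0.05 (SE, adjusted p = 0.0236), which is 84.8% of wild-type with a 95% interval of 78.4% to 91.6%. M.C alone gave -0.28 (adjusted p = 0.0686) and Mith alone -0.18 (adjusted p = 0.590), so neither cohort reached a call alone.

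The Ntrk2 call stood close to the threshold. It held in 8 of 14 fits that each left out 1 array, with differences of -0.26 to -0.22. Without R6/2 replicate 1, 3 or 7, or wild-type replicate 3, 4 or 7, the adjusted p ran from 0.0549 to 0.0678. With quantile normalization the difference was -0.18 and the adjusted p 0.131.

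The other Ntrk2 probe set, 1420837_at, gave another picture. It read 6.33, 6.12, 6.30 and 6.74 on the M.C R6/2 arrays, against 6.33, 6.47, 6.46 and 6.32 in M.C wild-type. It read 7.32, 7.15 and 6.99 on the Mith R6/2 arrays, against 7.68, 7.30 and 7.57 in Mith wild-type. The cohorts stood farther apart than the genotypes, with no Mith array as low as any M.C array. Every M.C reading was below the lowest array median, 7.07. Mith minus M.C came to 0.95 ± 0.10 (SE, adjusted p = 4.03e-06), a comparison in which 7312 of all probe sets were called, 32.3%. The genotype difference was -0.17 ± 0.10 (SE, adjusted p = 0.431), made of -0.02 in M.C and -0.37 in Mith. The interaction of genotype with cohort was -0.34 ± 0.18 (SE, adjusted p = 0.530). With the Actb control difference described below as a covariate, the genotype difference was -0.00 ± 0.11 (SE, adjusted p = 0.992). Thalamic neuron markers, of which none of 7 was called (median -0.19), had a median of 0.07 in M.C and -0.56 in Mith. Their mean log2 signal was 6.56 to 6.76 in M.C R6/2, against 6.55 to 6.70 in M.C wild-type. It was 6.76 to 7.12 in Mith R6/2, against 7.15 to 7.73 in Mith wild-type, with no overlap, and their part in the Ntrk2 values was not tested. The 2 probe sets' genotype differences were 0.07 apart (exact permutation p = 0.593, adjusted p = 0.716), so they were not shown to move unequally. The Ntrk2 gene makes the full-length receptor of neurons and truncated forms that astrocytes make in quantity, and which transcript each probe set reads is not given here.

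The window upstream of Ntrk2 is shown for comparison with that of Ppargc1a. It comes from RefSeq's GRCm38.p6 annotation, chr13:58806319-58806471, plus strand. The annotated gene begins at position 58806472, the next base. The transcript start used in the search lies farther on, and the last 97 of its 250 bases fall inside the gene and are not printed.
Ntrk2: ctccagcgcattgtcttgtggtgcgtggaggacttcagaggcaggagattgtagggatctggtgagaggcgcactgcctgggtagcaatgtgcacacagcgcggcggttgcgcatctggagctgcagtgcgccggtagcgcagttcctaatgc
Windows of 250 bases before each annotated transcript start were searched on both strands for the CREB site TGACGTCA (CRE), for its half-site TGACG, which also lies inside the full site, and for the GC box GGGCGG. They occurred in 1.546%, 17.77% and 32.74% of 32851 such windows. The full 250-base Ntrk2 window held none of the 3. The Htt window held 1 CRE and 4 GC boxes, and the Hip1r window held 4 GC boxes. The 2 Hap1 windows overlap and held the same half-site, 92 and 105 bases before their starts. Both Hip1 windows held a GC box. Among 7 Bdnf windows, 1 held a half-site and 2 held GC boxes. These are letter matches, and binding was not measured.

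Cell type markers moved beside Ntrk2. Of 11 astrocyte markers none was called with 1 probe set per gene, but 10 were below 0, with a median difference of -0.27. Their mean log2 signal was 8.53 to 8.79 on M.C R6/2 arrays, against 8.93 to 9.11 in M.C wild-type, and 8.75 to 8.98 in Mith R6/2, against 8.85 to 9.20 in Mith wild-type. Of 11 striatal projection neuron markers 7 fell, with a median of -0.57, against 2.08% of all genes called lower. Their mean was 9.15 to 9.48 in M.C R6/2, against 10.06 to 10.15 in M.C wild-type, and 9.34 to 9.57 in Mith R6/2, against 9.44 to 9.94 in Mith wild-type. Of 8 markers of mature oligodendrocytes 5 fell, with a median of -0.32. Their mean was 8.97 to 9.23 in M.C R6/2, against 9.24 to 9.74 in M.C wild-type, and 9.60 to 9.97 in Mith R6/2, against 10.13 to 10.24 in Mith wild-type, with no overlap in either cohort. In a fit with the Actb covariate described below, 1 projection neuron marker and 2 oligodendrocyte markers were still called lower, with list medians of -0.45 and -0.41. With all probe sets of a gene averaged, and without that covariate, 4 astrocyte, 9 projection neuron and 6 oligodendrocyte markers were called lower. With the astrocyte marker mean as a covariate, the difference of Ntrk2 1420838_at was -0.15 (adjusted p = 0.399), and with the projection neuron mean it was -0.22 (adjusted p = 0.906). No fit with the oligodendrocyte mean is given. After centring on cohort means, Ntrk2 1420838_at correlated with the astrocyte, oligodendrocyte and projection neuron means at r = 0.81, 0.81 and 0.74. An array signal has no true 0, so the absence of a cell type cannot be read from these lists. The astrocyte and projection neuron means themselves separated the genotypes in M.C, so fits with them as covariates cannot tell composition from genotype. The part of cell composition in the Ntrk2 result was not tested.

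**Figure D2:**
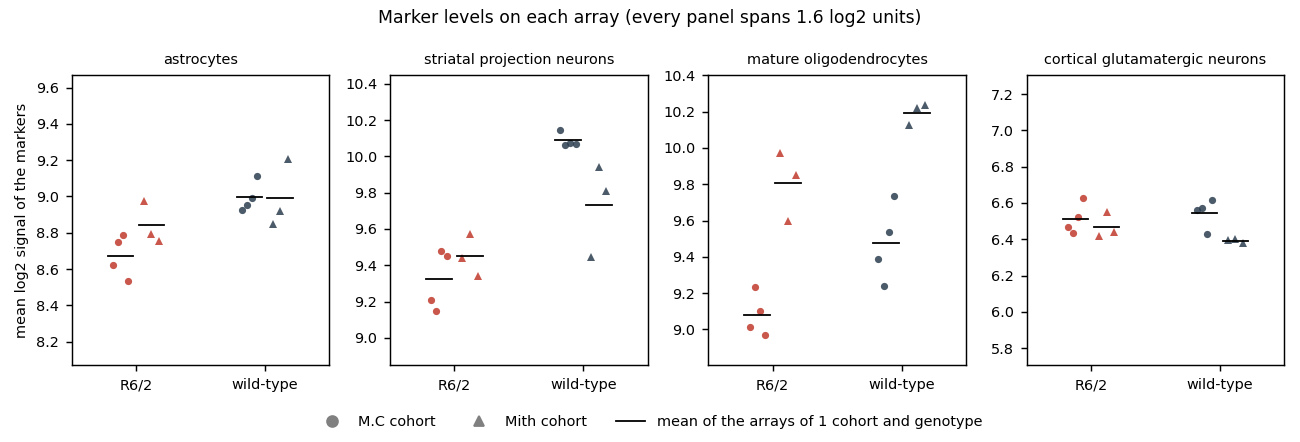
Mean log2 signal of the markers of 4 cell types on each array, R6/2 left and wild-type right, with circles for M.C, triangles for Mith and bars at the means of each cohort and genotype. Every panel spans 1.6 log2 units. Astrocyte and projection neuron means are apart between the genotypes in M.C and overlap in Mith, while the cortical means overlap in M.C and are all higher in R6/2 in Mith.

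A sign of RNA quality also differed by genotype. For the Actb control probe sets, signal at the 3′ end minus that at the 5′ end was 0.608 ± 0.181 in R6/2 and 0.373 ± 0.143 in wild-type (SD, n = 7 each), with an exact permutation p of 0.0186. That of Gapdh was 0.217 ± 0.207 in R6/2 and 0.0262 ± 0.0665 in wild-type (SD, n = 7 each), with an exact permutation p of 0.0143. Adjusted over both, the p was 0.0186 for each. With the Actb difference as a covariate, Ntrk2 1420838_at was still at -0.24 but with an SE of 0.07 and an adjusted p of 0.198, and no member was called. The Ppargc1a probe sets 1460336_at and 1456395_at were at -0.36 and -0.16 in that fit.

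PGC-1α mRNA had 3 of its 5 probe sets between -0.38 and -0.17 and the other 2 within 0.03 of 0 on the log2 scale, and none of the 5 passed the test. The brightest, Ppargc1a 1460336_at, read 8.19, 7.38, 8.35 and 7.24 on the M.C R6/2 arrays, against 8.22, 8.14, 8.59 and 8.42 in M.C wild-type. In Mith it read 7.76, 7.65 and 7.70 in R6/2, against 7.67, 7.79 and 8.13 in wild-type. In M.C, R6/2 replicates 2 and 4 were below all other arrays, while replicates 1 and 3 lay within the M.C wild-type range. The difference was -0.38 ± 0.15 (SE, adjusted p = 0.226), or 76.6% of wild-type with an interval of 61.2% to 95.9%. M.C alone gave -0.55 and Mith alone -0.16, and the interaction of 0.39 ± 0.30 (SE, adjusted p = 0.670) was not called. The Actb 3′ minus 5′ difference was 0.852 on replicate 2, the highest of all arrays, and 0.277 on replicate 4, and its part in these 2 readings was not tested.

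Ppargc1a 1456395_at came closest to a call, with readings below the lowest array median, 7.07, on every array. It read 6.04, 5.87, 5.92 and 6.03 on the M.C R6/2 arrays, against 6.22, 6.14, 6.42 and 6.21 in M.C wild-type, with no overlap. It read 6.66, 6.68 and 6.61 in Mith R6/2, against 6.60, 6.96 and 6.97 in Mith wild-type, where 1 wild-type array was lowest of all. The difference was -0.24 ± 0.06 (SE, adjusted p = 0.0576), or 84.5% of wild-type with an interval of 76.9% to 93.0%. It passed the threshold without R6/2 replicate 4 or without wild-type replicate 5, and with quantile normalization (-0.25, adjusted p = 0.0465) or array weights (-0.27, adjusted p = 0.0135). With the projection neuron marker mean as a covariate it was -0.05 (adjusted p = 0.9998), and with the astrocyte mean -0.18 (adjusted p = 0.438). Both means separated the genotypes in M.C, so the part of cell composition was not tested here either.

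Ppargc1a 1434099_at differed by -0.17 ± 0.06 (SE, adjusted p = 0.173), of like size in M.C (-0.17) and Mith (-0.18). The remaining probe sets, 1434100_x_at and 1437751_at, gave -0.02 ± 0.08 and -0.00 ± 0.06 (SE), with adjusted p of 0.933 and 0.980. Set against 1460336_at within arrays, 1437751_at differed by 0.38, with an exact permutation p of 0.0286 and an adjusted p of 0.114. The Ppargc1a probe sets were thus not shown to change unequally. Between the cohorts, 1456395_at, 1434099_at and 1434100_x_at were higher in Mith than in M.C by 0.64, 0.45 and 0.48 (adjusted p = 4.43e-06, 7.8e-05 and 0.00023). With Ntrk2 1420837_at these were the 4 members called between cohorts, and the genotype differences above are adjusted for that shift. The Ppargc1a probe sets that shifted read below the lowest array median, 7.07, on every array.

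The 250 bases before the Ppargc1a transcript start in the RefSeq table are shown because CREB is a known regulator of this gene. They are from RefSeq's GRCm38.p6 annotation, chr5:51567726-51567975, minus strand, with the capitals marking the CRE half-site, read here as its reverse complement. The annotated gene spans 51454249 to 52115853, so this start lies inside it, downstream of the first annotated base.
Ppargc1a: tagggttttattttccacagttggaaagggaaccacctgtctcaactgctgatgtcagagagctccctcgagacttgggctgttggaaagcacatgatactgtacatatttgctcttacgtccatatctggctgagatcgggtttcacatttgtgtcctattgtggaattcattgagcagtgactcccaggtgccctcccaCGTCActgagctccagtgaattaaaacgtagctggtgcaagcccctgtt
This half-site lies 49 bases before the start. No full CRE and no GC box was found in the window. It was the only Ppargc1a window searched, so bases before any other start of the gene were not examined.

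Within single cohorts no member was called. In M.C 558 probe sets were called, 2.47%, and in Mith none of 22626, 0%, where 2008 had an unadjusted p under 0.05. The interaction of genotype with cohort was called for no probe set, 0%, although 2213 had an unadjusted p under 0.05, none of them a member.

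**Figure D3:**
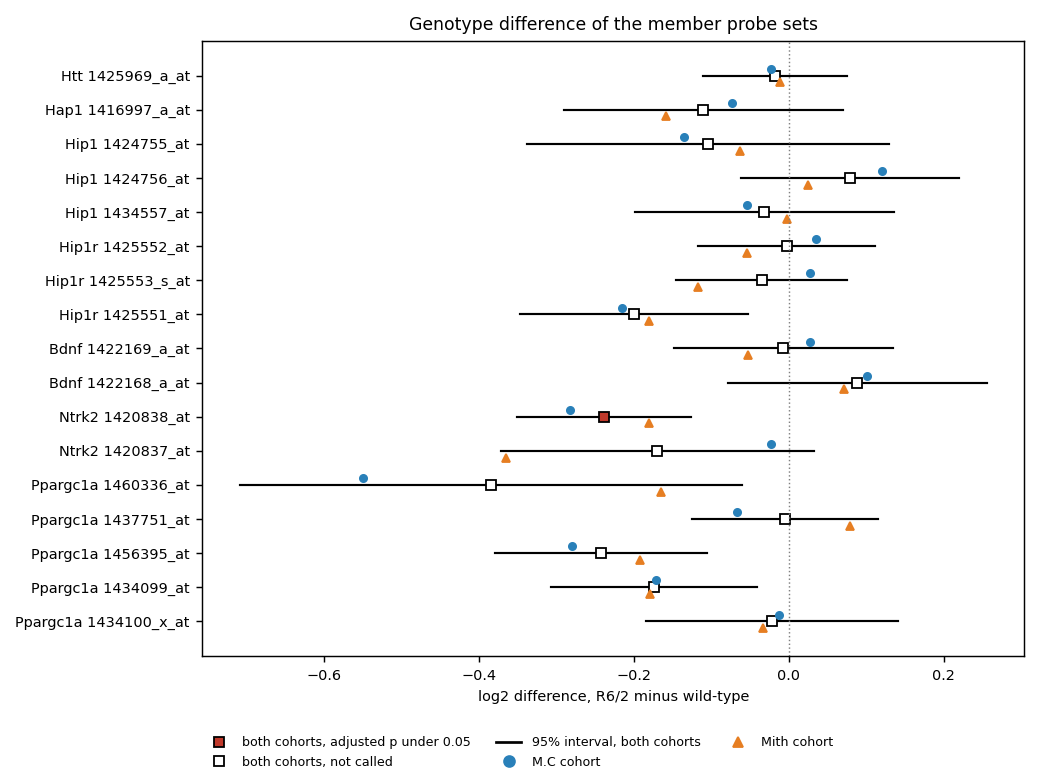
Log2 difference, R6/2 minus wild-type, of each member probe set: squares and lines are the value over both cohorts with its 95% interval, circles the M.C cohort and triangles the Mith cohort. The filled square, Ntrk2 1420838_at at -0.24, is the only called one, and the widest interval, -0.71 to -0.06, is that of Ppargc1a 1460336_at.

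The wider pathways were described with lists of genes that include the members, with the brightest probe set standing for each gene. Over all 12393 genes so represented, 258 were lower, 2.08%, and 55 higher, 0.444%, with a median of 0.01. Of 11 measured neurotrophin, receptor and processing genes 2 fell, Ntrk2 and Sorcs2, none rose, and the list median was -0.15. Sorcs2 encodes a sorting receptor that binds proneurotrophins. It differed by -0.28 ± 0.06 (SE, adjusted p = 0.0284), made up of -0.20 for M.C and -0.39 for Mith, and was at 82.4% of wild-type. Its call held in 10 of 14 fits that left out 1 array, with adjusted p of 0.0136 to 0.0735. Named after their values were seen, 4 more receptors of the list had negative values without a call. They were Sorl1 at -0.32 (adjusted p = 0.0716), the NT-3 receptor gene Ntrk3 at -0.21 (adjusted p = 0.0677), the p75 receptor gene Ngfr at -0.21 (adjusted p = 0.0995) and the sortilin gene Sort1 at -0.15 (adjusted p = 0.269). With all probe sets of a gene averaged, Sort1 was called at -0.20 (adjusted p = 0.0199) and so was Sorl1 (adjusted p = 0.0381). The proprotein convertase genes Furin, Pcsk1 and Pcsk7 gave 0.00, 0.08 and 0.06, none called.

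Downstream of TrkB, 1 of 27 measured signalling genes fell and none rose, with a list median of -0.06. It was Akt2, a kinase of the PI3K pathway, at -0.42 ± 0.10 (SE, adjusted p = 0.0272), or 74.8% of wild-type. M.C alone gave -0.62 and Mith alone -0.15, and the call held in 6 of 14 fits that left out 1 array, with adjusted p of 0.00189 to 0.0663. With the Actb difference as a covariate, no gene of the neurotrophin or TrkB lists was called. Sorcs2 was at -0.23 (adjusted p = 0.296) and Akt2 at -0.22 (adjusted p = 0.407) in that fit. None of 20 measured genes listed as huntingtin partners was called, and their median was -0.08. None of 26 clathrin-mediated endocytosis genes was called, with a median of -0.05.

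None of 31 measured partners and targets of PGC-1α was called, and their median was 0.03, close to that of all genes. This list holds nuclear respiratory factors, mitochondrial subunits and antioxidant enzymes. By value it ran from -0.38, Ppargc1a itself, to 0.25, with 13 of 31 below 0.

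**Figure D4:**
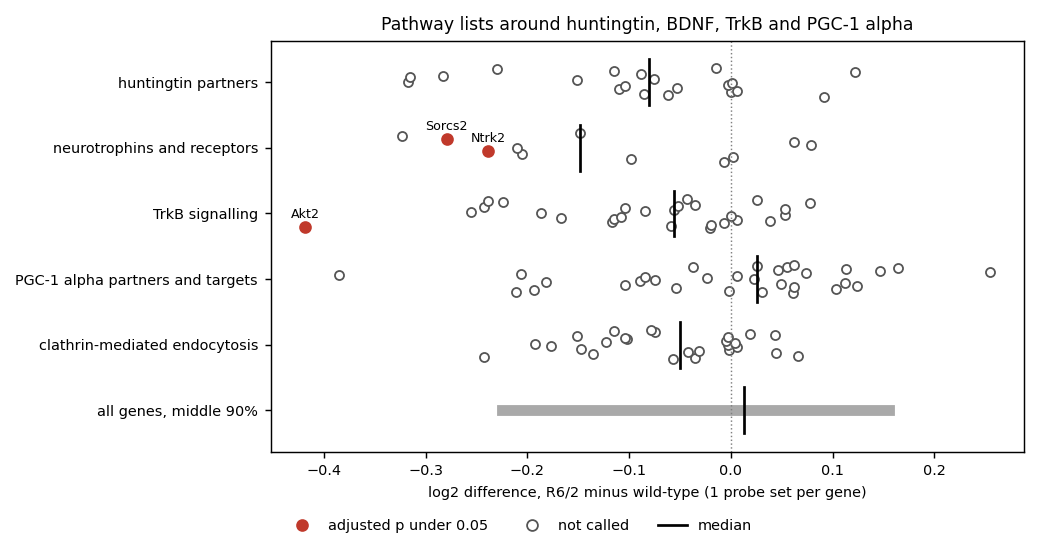
Log2 difference, R6/2 minus wild-type, of each measured gene of 5 lists, 1 probe set per gene, with called genes filled and named and a bar at each list's median. The grey bar holds the middle 90% of all genes, -0.22 to 0.15. Ntrk2, Sorcs2 and Akt2 are the called genes, and every list also has genes on both sides of 0.

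The genes whose signal followed each member most closely were found by Pearson correlation over the 14 arrays, after centring on each cohort's mean and with 1 probe set per gene. The arrays share their processing, the genotype difference and any difference in composition or RNA quality, so these are descriptions. Ntrk2 (1420838_at) was followed by Fam20c (r = 0.964), Atp2a2 (r = 0.922) and Elmo1 (r = 0.920), each of which was itself called lower in R6/2, by -0.24, -0.45 and -0.34. Ppargc1a (1460336_at) was followed by Cdk14 (r = 0.938), Srpk2 (r = 0.906) and Scn1a (r = 0.901). Htt was followed less closely, by Kdm5a (r = 0.878), Nr2c2 (r = 0.822) and Nrip1 (r = 0.816). Hap1 had Baiap3 (r = 0.921), Wdr6 and Tollip, Hip1 had Cenpb (r = 0.954), Zbtb12 and Kif1a, Hip1r had Rab43 (r = 0.869), Il17b and Fgf18, and Bdnf had Lrfn1 (r = 0.942), Ephb3 and Igsf5. Under quantile normalization 10 of these 21 genes stayed among the 3 closest.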

How the data were processed

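Total RNA of 14 striatum samples had been hybridised to an Affymetrix mouse array. The authors deposited log2 probe set signals, as read from the values. The summary and normalization steps are not given in the sources used here, and no raw scans were used, so the number of arrays limits precision. Of 22690 probe sets, 64 controls were left out. Deposited array medians ran from 7.07 to 7.17, and all arrays were then centred to share 1 median. Symbols came from the platform annotation, updated by gene ID for 20351 of 20380 probe sets with 1 symbol. A further 691 had several symbols and 1555 had none.

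Genotype was tested with limma 3.58.1 (R 4.3.3), with cohort as a term, two-sided and with Benjamini-Hochberg adjustment over 22626 probe sets. The script was checked on simulated data. Percent of wild-type is 2 to the power of the log2 difference. Probe set pairs and RNA quality were tested by exact permutation. Replicate numbers follow record order and pair nothing. Named genes were all members, up to 4 called genes each way in each of 5 pathway lists, and the 3 genes most like each member. Members and lists, with the 9 marker lists, were chosen with earlier results of these data known. Choroid plexus, microglial and vessel markers (4, 8 and 6 measured) had no called gene, with medians of -0.02, -0.06 and -0.06. Alternatives covered the cohort term, scaling, dim probe sets, variance priors, array weights, RNA quality, probe set choice, the threshold and each array left out.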

Additional observations from a re-analysis of the deposited data

Results flagged for a closer look

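Single arrays stood apart from the rest of their group in 3 cases, by Dixon's test of the gap to the nearest array. Htt 1425969_a_at was at a log2 signal of 7.77 on R6/2 replicate 2, the lowest of 7 R6/2 arrays, with the nearest at 7.89. Hip1 1434557_at was at 6.82 on R6/2 replicate 4, the lowest of the 4 M.C R6/2 arrays, with the nearest at 7.20. Ppargc1a 1434100_x_at was at 5.55 on wild-type replicate 1, the highest of the 4 M.C wild-type arrays, with the nearest at 5.38. There were 76 such groups, and chance alone passes this test in about 1 group of 20. R6/2 replicate 4 also correlated least with its cohort, with a mean Spearman coefficient of 0.981.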

How the results depend on the processing

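The number of probe sets called over both cohorts, 578, was 100 without the cohort term, 1333 with array weights, 56 with the Actb covariate, 338 when 1 probe set per gene was fitted and adjusted over those 12393 alone, 131 at an adjusted p under 0.01 and 280 to 879 with 1 array left out. The member count of 1 was 0 without the cohort term, with the Actb covariate, with all probe sets of a gene averaged and at 0.01, 2 with array weights, and 0 to 2 with 1 array left out. It was 2 without R6/2 replicate 4 or wild-type replicate 5. Ntrk2 1420838_at lost its call at -0.24 without the cohort term, -0.18 with quantile normalization, -0.24 with the Actb covariate, -0.20 as the mean of both probe sets, and -0.15 and -0.22 with the astrocyte and projection neuron covariates, which were added after the data were seen. It was -0.26 to -0.22 with 1 array left out. The M.C count was 371 with quantile normalization and 242 to 962 with 1 array left out. The Mith count was 0 to 13 and the interaction count 0 to 7. Probe sets near 0, and Hip1 1424755_at at -0.10, changed sign, and none of them was called. Htt was 0.000465 as deposited, 0.00897 with quantile normalization, 0.0220 with the Actb covariate and -0.0306 to 0.00247 with 1 array left out. Hip1r 1425552_at was 0.0154, 0.0494 and 0.0150 as deposited, with quantile normalization and with array weights, and -0.0276 to 0.0211 with 1 array left out. Hip1r 1425553_s_at was 0.00360 with quantile normalization and 0.0139 with array weights. Bdnf 1422169_a_at was 0.0112 as deposited, 0.00982 with quantile normalization, 0.112 with the Actb covariate, 0.0407 as the mean of both probe sets and -0.0611 to 0.0213 with 1 array left out. Hip1 1424755_at was 0.138 with the Actb covariate. Hip1 1434557_at was 0.0237 with array weights and -0.0768 to 0.0250 with 1 array left out. Ppargc1a 1437751_at was 0.0137 as deposited, 0.00900 with quantile normalization, 0.0987 and 0.143 with the astrocyte and projection neuron covariates, and -0.0403 to 0.0198 with 1 array left out. Ppargc1a 1434100_x_at was 0.182 with the astrocyte covariate and -0.0617 to 0.0276 with 1 array left out. With all probe sets of a gene averaged, 1 huntingtin partner, 3 neurotrophin, 3 TrkB signalling and 1 clathrin gene were lower. So were 4 astrocyte, 9 projection neuron, 6 oligodendrocyte and 1 thalamic marker. The cause of these shifts was not tested. No paired analysis was possible because replicate numbers follow record order only.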
